A study of Mus musculus with 18 samples.

Results

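The 9 genes described here encode transcription factors and nuclear proteins of the immediate early class: the zinc finger factors Egr1, Egr2 and Egr3, the orphan nuclear receptors Nr4a1, Nr4a2 and Nr4a3, and the immediate early response genes Ier2, Ier3 and Csrnp1. They were taken by symbol from the array's probe annotation, and each was read from the probe set with the highest mean over all 18 arrays. They are 9 of the 18194 genes with a probe set and 9 of the 13728 genes bright enough to be tested. The study measured mRNA on whole-genome Affymetrix arrays in mouse embryonic fibroblasts (MEFs), connective tissue cells grown from E13.5 embryos and passaged 2 to 3 times. The 3 genotypes were wild type (WT), Atf4-/- (no ATF4, the main transcription factor of the integrated stress response) and Cebpg-/- (no C/EBPγ, a bZIP protein that can pair with ATF4). After 24 h on the plate, each genotype was kept for 3 h either in normal medium or under amino acid deprivation (AAD), for which the medium was a supplemented Krebs-Ringer buffer. The supplements and the make of the knockout alleles are not stated in the sources used here. Loss of amino acids and any other difference between this buffer and normal medium therefore cannot be told apart. Below, AAD means the change of medium as a whole. Each of the 6 groups had 3 arrays, and this number limits the precision of every value. The labels do not say whether the 3 came from separate embryos or cultures, so the p-values cover no more than the spread among these arrays, which may be technical.

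Immediate early genes are transcribed within minutes of a stimulus from factors that are already in the cell, so that no new protein has to be made first. Serum response factor with its ELK partners, bound at CArG boxes, and CREB, bound at cyclic AMP response elements (CREs), are their best known switches, both downstream of kinases. In fibroblasts EGR1 is a classical reporter of growth factor and stress signalling, the NAB proteins restrain EGR factors, and the NR4A receptors need no known hormone, so that their activity follows their amount.

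RefSeq promoter windows (assembly GRCm38.p6) were at hand for 6 of the 9 genes, as 13 windows of 250 bases before an annotated start. Egr1, Egr3 and Ier2 had none. The windows of the 3 NR4A receptors are printed because each held 4 matches to the CRE core TGACG on either strand, a count of 4 or more that 45 of all 32851 such windows reached (0.137%). Capitals mark the motif matches, which do not overlap one another.
Nr4a1, chr15:101266596-101266845, plus strand: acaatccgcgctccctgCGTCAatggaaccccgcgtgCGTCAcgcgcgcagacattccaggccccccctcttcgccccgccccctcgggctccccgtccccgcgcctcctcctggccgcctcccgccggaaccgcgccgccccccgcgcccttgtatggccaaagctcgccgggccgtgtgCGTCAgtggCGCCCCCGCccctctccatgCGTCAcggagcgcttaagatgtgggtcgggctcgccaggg
Nr4a2, chr2:57124004-57124253, minus strand: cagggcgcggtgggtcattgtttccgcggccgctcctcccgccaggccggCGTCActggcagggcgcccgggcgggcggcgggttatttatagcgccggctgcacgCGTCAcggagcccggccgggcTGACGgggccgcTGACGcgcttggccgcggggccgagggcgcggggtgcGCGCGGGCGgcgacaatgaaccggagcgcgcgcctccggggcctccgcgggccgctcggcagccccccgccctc
Nr4a3, chr4:48045055-48045304, plus strand: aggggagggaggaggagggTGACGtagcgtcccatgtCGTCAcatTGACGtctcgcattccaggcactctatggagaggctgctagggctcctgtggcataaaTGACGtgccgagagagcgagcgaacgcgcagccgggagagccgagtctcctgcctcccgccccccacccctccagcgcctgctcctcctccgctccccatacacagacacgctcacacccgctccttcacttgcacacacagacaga
The Nr4a1 and Nr4a2 windows also held 1 match each to the EGR site GCGNGGGCG, which 4.70% of all windows hold. Both are rich in G and C (74.4% and 80.0%, against 63.6% in Nr4a3 and a median of 52.4% over all windows), and TGACG and the EGR site hold CG pairs, so a high count is more easily reached there.

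Egr2 is shown by a stretch of 30 bases only, because it holds a CArG box 7 bases from a CRE core, both in capitals. The CArG box starts 72 bases before an annotated start.
Egr2, chr10:67537795-67537824, plus strand: gtCCATATATGGgcagcgaCGTCAcgggta
A CArG box stood in 1.47% and a CRE core in 17.8% of all windows. Of the other windows, those of Csrnp1 held 1 or 2 CRE cores and that of Ier3 held no match. The most upstream Egr2 window held no match, and the next held a different CArG box without a CRE core. The remaining Egr2 windows overlap and hold the stretch shown. No window of the 6 genes held the full CRE TGACGTCA (1.55% of all windows), the ATF4-C/EBP composite site TGATGNAA (3.45%) or the NR4A site AAAGGTCA (1.34%). A match is a stretch of letters and not a measured site, and a missing match says only that these letters are not in these windows.

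The targeted genes and cell markers were read first. Atf4 stood at 12.10 ± 0.07 (SD, n = 3) in WT and at 6.50 ± 0.16 in Atf4-/- cells in normal medium. The Cebpg probe set did not separate Cebpg-/- from WT cells in normal medium (9.31 ± 0.06 against 9.27 ± 0.09, limma adjusted p = 0.805). Under AAD it was lower in Cebpg-/- cells (-0.74 ± 0.11, adjusted p = 1.33e-04), having risen by 1.06 ± 0.11 in WT cells and read 0.28 ± 0.11 in Cebpg-/- cells (adjusted p = 0.0868). Its place relative to the deleted part is not stated in the sources used here, and it does not check the label, and Cebpg-/- means the arrays labelled so. All 11 fibroblast markers with a probe set used here were above the filter level in every group. Macrophage markers were present too: 15 of 16 were above that level in WT cells, with a summed level (log2 of the sum) of 12.65 to 12.73 in normal medium and 11.99 to 12.09 under AAD. That sum was 13.33 to 13.70 and 12.72 to 13.21 in Atf4-/- cells and 13.68 to 14.12 and 12.89 to 13.33 in Cebpg-/- cells. It was thus higher in both knockouts and lower under AAD in all 3 genotypes. The sum leans on Lyz2, the brightest marker (11.30 in normal medium and 10.05 under AAD in WT cells). By marker, 6 of 16 were called lower under AAD in WT, 2 in Atf4-/- and 8 in Cebpg-/- cells, and none was called higher. Over all genes tested 13.9%, 2.03% and 10.3% were called lower there. Cd68 and Mrc1 read higher under AAD in all 3 genotypes, by 0.11 to 0.34, without passing. For no macrophage marker was the AAD response called different between genotypes (0 of 16 in either knockout against WT by limma, and 0 of 16 between the knockouts). Over all genes tested 12.8% were called for Atf4-/- minus WT, 0.226% for Cebpg-/- minus WT and 5.3% between the knockouts. With shares this low, a count of 0 among 16 genes does not show equal responses. The part of macrophages in the levels below was not tested. In such mixed RNA, fewer cells of a type and less RNA per cell cannot be told apart.

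AAD for 3 h raised 6 of the 9 genes in WT cells, lowered 1 (Egr2) and left 2 short of the threshold (Egr3 and the brightest Nr4a3 probe set). The threshold for a call was an adjusted p of 0.05 (limma, Benjamini-Hochberg over all 13728 genes), and below it lay 28.2% of all genes tested, 14.3% higher and 13.9% lower. In Atf4-/- cells none of the 9 was called higher and 3 fell (Egr2, Egr3 and Ier2), where 4.7% of all genes were called, 2.67% higher and 2.03% lower. In Cebpg-/- cells 3 rose (Egr1, Ier2 and Csrnp1) and none was called lower, where 21.9% of all genes were called, 11.7% higher and 10.3% lower. The median change of the 9 was 0.72 on the log2 scale in WT, -0.37 in Atf4-/- and 0.26 in Cebpg-/- cells, against -0.01, 0.01 and -0.02 over all genes tested. Arrays with the same number in the 2 media of a genotype deviated together, so each was also compared within its pair. With that replicate block within genotype, 7 of the 9 were called in WT, 5 in Atf4-/- and 7 in Cebpg-/- cells. Those added in Atf4-/- cells were Egr1 and Ier3, both lower. In Cebpg-/- cells Egr2 and Nr4a1 were added as lower, and Nr4a2 and Ier3 as higher. The shares of all genes above are from the fit without the block. For counts with the block, here and below, no such share is given. Whether those counts exceed the share of all genes called with the block therefore cannot be read from them.

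**Figure D1:**
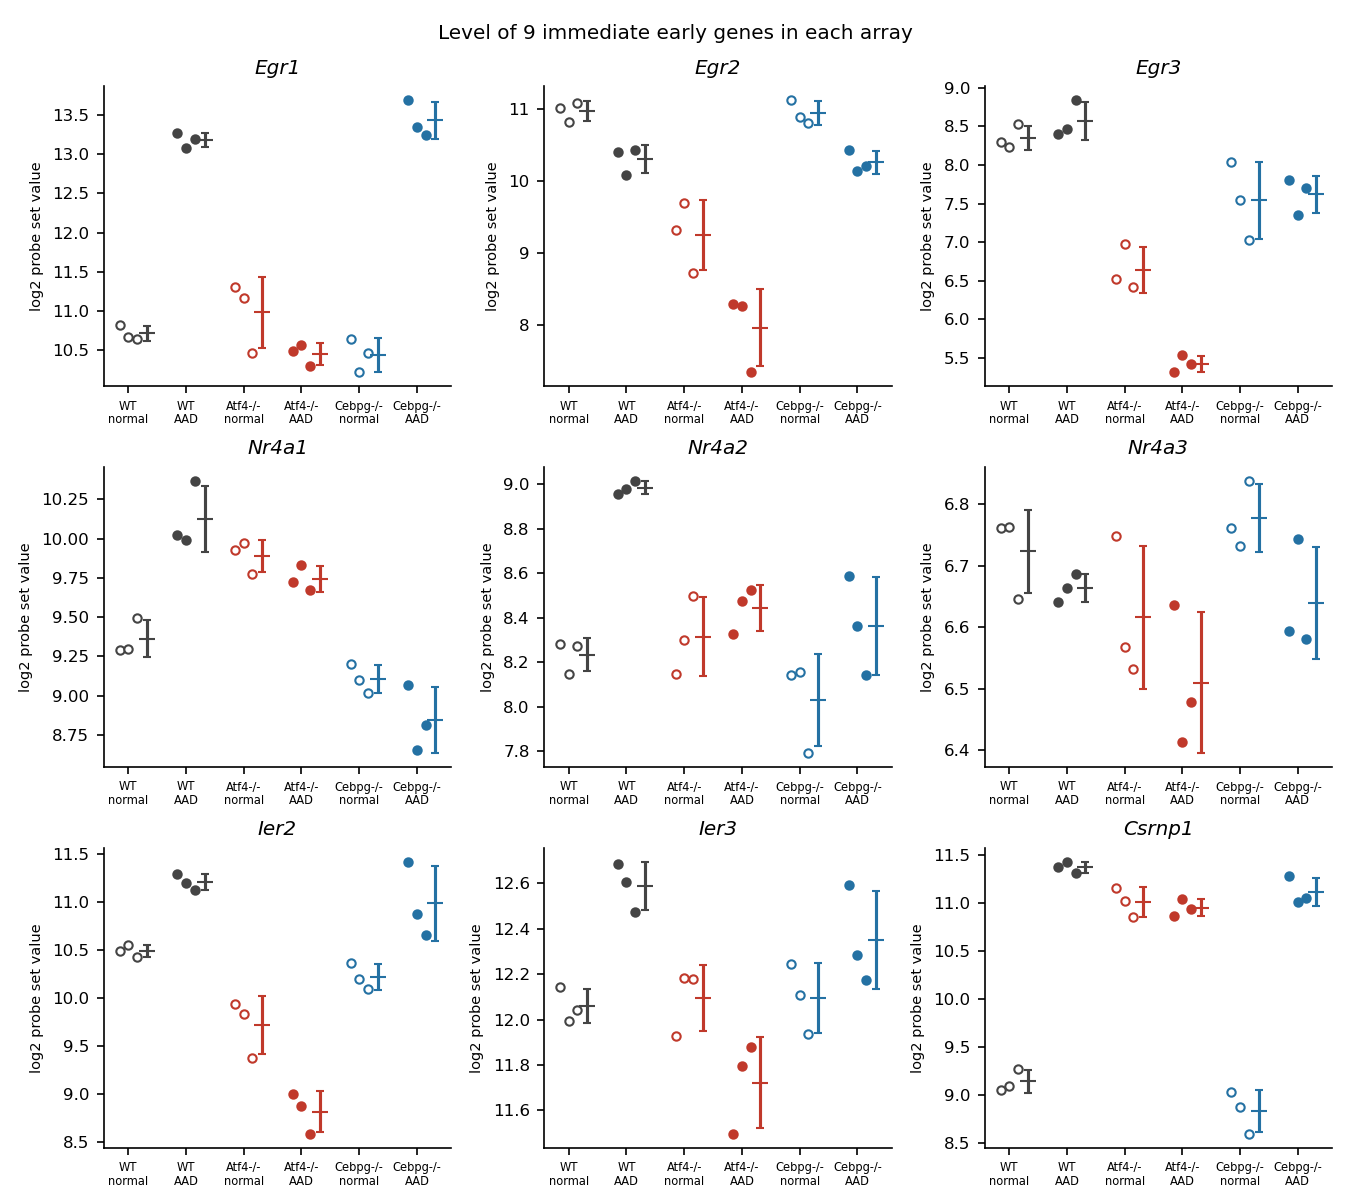
Log2 probe set value (vertical axis, own range per panel) of the 9 genes in the 3 arrays of each genotype and medium (horizontal axis). Open points are arrays in normal medium, filled points arrays under AAD, and the bar beside them is the mean ± SD (n = 3). Egr1 stood at 13.09 or above in the WT and Cebpg-/- arrays under AAD and at 11.31 or below in all others, while Csrnp1 was also high in every Atf4-/- array.

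Egr1, the zinc finger factor most often used as a reporter of growth factor and stress signals, rose most among the EGR genes. In WT cells it read 10.82, 10.67 and 10.65 in normal medium and 13.27, 13.09 and 13.20 under AAD, a rise of 2.47 ± 0.18 (SE, 5.55-fold, adjusted p = 3.76e-08). Cebpg-/- cells gave 10.64, 10.22 and 10.46 in normal medium and 13.70, 13.35 and 13.25 under AAD, a rise of 2.99 ± 0.18 (7.97-fold, adjusted p = 5.57e-09). In both genotypes every AAD array lay far above every array in normal medium. Atf4-/- cells gave 11.31, 11.17 and 10.47 in normal medium and 10.49, 10.56 and 10.30 under AAD, a difference of -0.53 ± 0.18 that was not called (adjusted p = 0.109). Here the groups overlapped, because replicate 3 in normal medium lay among the AAD arrays. Without that array the difference was -0.79 and was called (adjusted p = 0.00387), and so it was with the replicate block (adjusted p = 0.0105). The response, meaning the log2 change under AAD, was lower in Atf4-/- than in WT cells by 3.00 ± 0.25 (adjusted p = 1.09e-06). Between Cebpg-/- and WT cells it differed by 0.52 ± 0.25 (95% interval -0.02 to 1.06, adjusted p = 0.723).

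In normal medium Egr1 differed little between genotypes, by 0.27 ± 0.18 in Atf4-/- and -0.27 ± 0.18 in Cebpg-/- cells against WT (adjusted p = 0.222 and 0.291). The first of these became a call of 0.52 (adjusted p = 0.00483) without Atf4-/- normal medium replicate 3. Under AAD it was lower in Atf4-/- than in WT cells by 2.74 ± 0.18 (6.66-fold, adjusted p = 5.13e-09). Ordered by mean, the Cebpg-/- AAD and WT AAD groups came first and did not differ beyond their spread (adjusted p = 0.322). The step of 2.20 ± 0.18 down to Atf4-/- cells in normal medium passed, and no neighbours among the 4 lower groups differed (adjusted p = 0.216 to 0.963).

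Egr2, also called Krox20 and known from myelination and hindbrain patterning, moved the other way. In WT cells it read 11.01, 10.82 and 11.08 in normal medium and 10.41, 10.08 and 10.43 under AAD, a fall of 0.66 ± 0.24 (1.58-fold, adjusted p = 0.0481). The groups did not overlap, but this call was lost without any 1 of the 6 WT arrays (-0.74 to -0.55, adjusted p = 0.0655 to 0.161), and with the replicate block it stood at an adjusted p of 4.48e-05. Cebpg-/- cells gave 11.13, 10.88 and 10.81 against 10.43, 10.13 and 10.21, a difference of -0.68 ± 0.24 that missed the threshold (adjusted p = 0.0506) and passed with the replicate block (adjusted p = 5.59e-05). Atf4-/- cells started lower, at 9.32, 9.69 and 8.72, and read 8.28, 8.26 and 7.34 under AAD, a fall of 1.28 ± 0.24 (2.44-fold, adjusted p = 0.00474). All 3 Atf4-/- AAD arrays lay below every other array of the series, and replicate 3 was lowest in both media. In normal medium Egr2 was lower in Atf4-/- than in WT cells by 1.72 ± 0.24 (3.31-fold, adjusted p = 1.51e-05), and under AAD by 2.35 ± 0.24 (5.09-fold, adjusted p = 5.47e-07). The difference in response, -0.62 ± 0.34 (adjusted p = 0.273), passed only with the replicate block (adjusted p = 0.00185). WT and Cebpg-/- cells differed by -0.03 ± 0.24 in normal medium and -0.05 ± 0.24 under AAD (95% intervals -0.54 to 0.49 and -0.57 to 0.47).

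Egr3, which acts with Egr1 and Egr2 on shared sites and is needed for muscle spindles, followed the genotype more than the medium. WT cells read 8.29, 8.23 and 8.53 in normal medium and 8.40, 8.47 and 8.85 under AAD (0.22 ± 0.21, adjusted p = 0.506). Cebpg-/- cells read 8.04, 7.55 and 7.03 in normal medium and 7.80, 7.35 and 7.71 under AAD (0.08 ± 0.21, adjusted p = 0.843). Both pairs of groups overlapped. In Atf4-/- cells the values were 6.52, 6.98 and 6.42 in normal medium and 5.32, 5.53 and 5.42 under AAD, a fall of 1.22 ± 0.21 (2.32-fold, adjusted p = 0.0029) with no overlap. The response was lower in Atf4-/- than in WT cells by 1.44 ± 0.30 (adjusted p = 0.00417) and than in Cebpg-/- cells by a difference of 1.29 ± 0.30 (Cebpg-/- minus Atf4-/-, adjusted p = 0.0166).

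In Atf4-/- cells Egr3 was lower than in WT by 1.71 ± 0.21 in normal medium (3.27-fold, adjusted p = 4.66e-06) and by 3.15 ± 0.21 under AAD (8.86-fold, adjusted p = 7.44e-09). Cebpg-/- cells were lower than WT by 0.81 ± 0.21 in normal medium (1.75-fold, adjusted p = 0.0111) and by 0.95 ± 0.21 under AAD (1.93-fold, adjusted p = 0.00303). The call in normal medium was lost without WT replicate 3 (-0.72, adjusted p = 0.0518) or without Cebpg-/- replicate 3 (-0.55, adjusted p = 0.0655). The order of the means was WT, then Cebpg-/-, then Atf4-/- cells. The steps between the 2 media did not pass within WT or within Cebpg-/- cells. The other 3 steps, from WT to Cebpg-/-, from there to Atf4-/- in normal medium and on to Atf4-/- under AAD, all passed (adjusted p = 0.0107, 0.00202 and 0.0029).

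Nr4a1, the orphan receptor also called Nur77, rose in WT cells alone among the 3 genotypes. There it read 9.29, 9.30 and 9.50 in normal medium and 10.02, 9.99 and 10.37 under AAD, a rise of 0.76 ± 0.11 (1.70-fold, adjusted p = 7.42e-05). Atf4-/- cells read 9.92, 9.97 and 9.77 in normal medium and 9.73, 9.83 and 9.67 under AAD (-0.15 ± 0.11, adjusted p = 0.59). In Cebpg-/- cells the values were 9.20, 9.10 and 9.02 in normal medium and 9.07, 8.65 and 8.81 under AAD (-0.26 ± 0.11, adjusted p = 0.11). The WT groups lay apart, and both knockouts' groups overlapped. The Cebpg-/- difference was called lower with the replicate block (adjusted p = 0.00976) and without Cebpg-/- AAD replicate 1 (-0.37, adjusted p = 0.0278). The response was lower than in WT by 0.91 ± 0.16 in Atf4-/- (adjusted p = 0.00114) and by 1.03 ± 0.16 in Cebpg-/- cells (adjusted p = 0.0159). The knockouts' responses differed from each other by -0.12 ± 0.16 (Cebpg-/- minus Atf4-/-, 95% interval -0.46 to 0.23, adjusted p = 0.788). The call between Cebpg-/- and WT was lost without WT normal medium replicate 2 (-0.995, adjusted p = 0.0512) or Cebpg-/- normal medium replicate 1 (-0.98, adjusted p = 0.051), and kept with the replicate block (adjusted p = 0.00115).

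The level of Nr4a1 in normal medium was higher in Atf4-/- than in WT cells by 0.53 ± 0.11 (1.44-fold, adjusted p = 8.39e-04), and under AAD it was lower by 0.38 ± 0.11 (1.30-fold, adjusted p = 0.0082). The second call was lost without WT AAD replicate 3, the highest of all 18 values (-0.26, adjusted p = 0.055). Cebpg-/- cells under AAD held less than WT by 1.28 ± 0.11 (2.43-fold, adjusted p = 1.2e-06). Among neighbours in the order of means, one step passed, from Atf4-/- under AAD down to WT in normal medium (0.38 ± 0.11, adjusted p = 0.0083), with WT under AAD and both Atf4-/- groups above it and both Cebpg-/- groups below.

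Nr4a2, also called Nurr1 and needed for midbrain dopamine neurons, read 8.28, 8.15 and 8.27 in WT cells in normal medium and 8.96, 8.98 and 9.02 under AAD. This was a rise of 0.75 ± 0.12 (1.68-fold, adjusted p = 1.3e-04). In Atf4-/- cells it read 8.15, 8.30 and 8.50 in normal medium and 8.33, 8.48 and 8.52 under AAD (0.13 ± 0.12, adjusted p = 0.671). The WT AAD arrays lay above all other arrays of the series. Cebpg-/- cells gave 8.14, 8.15 and 7.79 in normal medium and 8.59, 8.36 and 8.14 under AAD, and the media overlapped in both knockouts. The Cebpg-/- difference of 0.33 ± 0.12 missed the threshold (adjusted p = 0.051) and passed with the replicate block (adjusted p = 0.0015) and without Cebpg-/- AAD replicate 3 (0.44, adjusted p = 0.0158). Against WT, the response was lower in Atf4-/- cells by 0.62 ± 0.16 (adjusted p = 0.0194), a call lost without WT normal medium replicate 2 (-0.58, adjusted p = 0.0529) or Atf4-/- normal medium replicate 3 (-0.53, adjusted p = 0.0516). In Cebpg-/- cells it differed from WT by -0.42 ± 0.16 (adjusted p = 0.572, and 0.0406 with the replicate block). Under AAD Nr4a2 was lower than in WT by 0.54 ± 0.12 in Atf4-/- and 0.62 ± 0.12 in Cebpg-/- cells (adjusted p = 8.9e-04 and 9.04e-04), and no neighbours among the 5 groups below WT AAD differed (adjusted p = 0.233 to 0.77).

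For Nr4a3, or NOR1, the reading depended on the probe set. Its brightest one was flat: 6.76, 6.76 and 6.65 in normal medium and 6.64, 6.66 and 6.69 under AAD in WT cells (-0.06 ± 0.07, adjusted p = 0.616). Across all 18 arrays it ranged from 6.41 to 6.84, and no neighbouring groups differed. Its second probe set, turned to after these values were seen, read 5.95, 5.91 and 6.13 in WT cells in normal medium and 7.73, 7.46 and 7.77 under AAD, a rise of 1.66 ± 0.13 (adjusted p = 7.45e-08). It read 6.45, 6.57 and 6.74 against 6.54, 6.78 and 7.01 in Atf4-/- cells (0.19 ± 0.13, adjusted p = 0.501) and 5.57, 5.21 and 5.32 against 6.28, 6.16 and 6.38 in Cebpg-/- cells, a rise of 0.91 ± 0.13 (adjusted p = 7.01e-05). On it the groups lay apart in WT and Cebpg-/- cells and overlapped in Atf4-/- cells. The response on the second probe set was lower than in WT by 1.47 ± 0.18 in Atf4-/- cells (adjusted p = 4.44e-05) and differed by -0.75 ± 0.18 in Cebpg-/- cells (adjusted p = 0.116). Its remaining probe set stayed under the filter level, with group means of 3.19 to 3.60. With the second probe set in place of the brightest, 8 of the 9 genes would be called in WT and 4 in Cebpg-/- cells.

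All 4 brighter probe sets of Nr4a2 gave a higher value under AAD in WT cells (0.43 to 0.77), and the 2 dimmest gave -0.05 and -0.10. The dimmer probe sets of Egr3 and Csrnp1, with group means of 5.83 to 5.96 and 5.13 to 5.33, differed by -0.014 and -0.00065 between media in WT cells. Both Egr2 probe sets gave about the same change (-0.66 and -0.65). Egr1, Nr4a1, Ier2 and Ier3 had 1 probe set each.

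**Figure D2:**
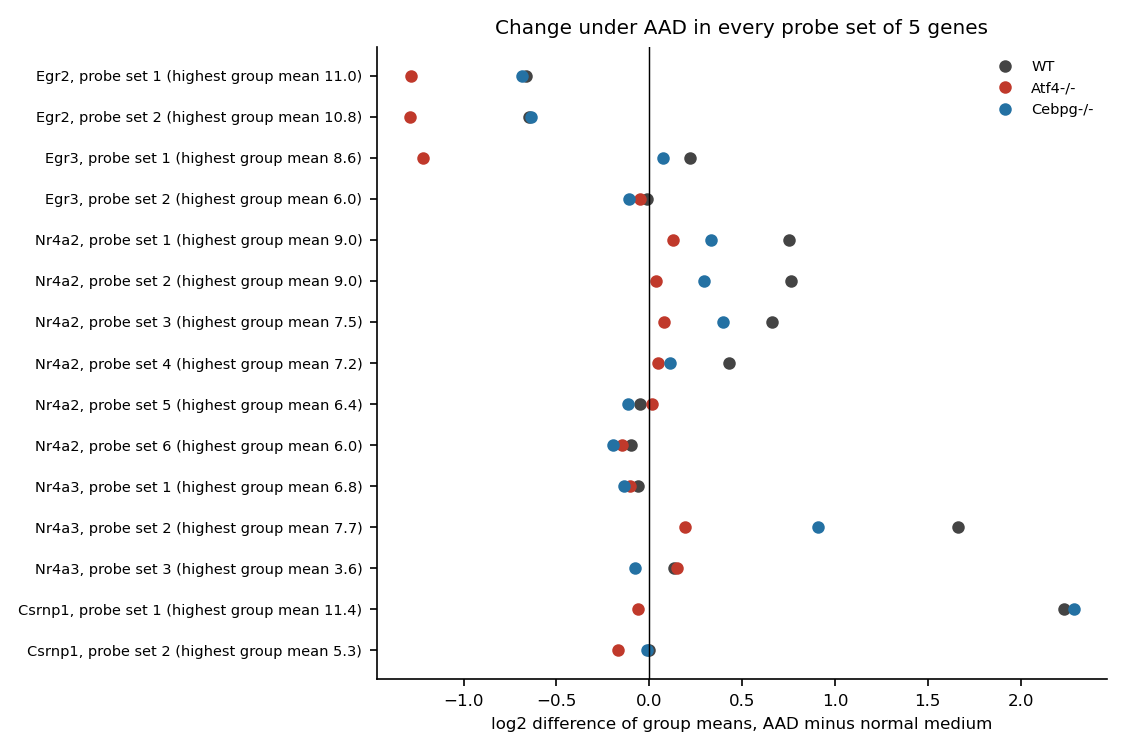
Difference of group means, AAD minus normal medium (log2, horizontal axis), for every probe set of the 5 genes with several, one row per probe set with its highest group mean, in the 3 genotypes. The second Nr4a3 probe set lies at 1.66 in WT cells while the brightest lies at -0.06.

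Ier2, which encodes a small nuclear protein of the early growth response, rose in 2 genotypes and fell in the other. WT cells read 10.49, 10.55 and 10.43 in normal medium and 11.30, 11.20 and 11.13 under AAD, a rise of 0.72 ± 0.17 (1.65-fold, adjusted p = 0.00451). Cebpg-/- cells read 10.37, 10.20 and 10.10 in normal medium and 11.42, 10.88 and 10.66 under AAD, a rise of 0.77 ± 0.17 (1.70-fold, adjusted p = 0.00406). Atf4-/- cells read 9.94, 9.84 and 9.38 in normal medium and 8.99, 8.87 and 8.58 under AAD, a fall of 0.90 ± 0.17 (1.87-fold, adjusted p = 0.00545). The media did not overlap in any genotype, and every Atf4-/- array lay below every WT array. The response was lower in Atf4-/- than in WT cells by 1.62 ± 0.24 (adjusted p = 3.01e-04), and higher in Cebpg-/- than in Atf4-/- cells by 1.67 ± 0.24 (adjusted p = 4.57e-04). Between Cebpg-/- and WT cells it differed by 0.05 ± 0.24 (95% interval -0.48 to 0.57). Ier2 was lower in Atf4-/- than in WT cells by 0.77 ± 0.17 in normal medium (1.71-fold, adjusted p = 0.00115) and by 2.39 ± 0.17 under AAD (5.26-fold, adjusted p = 1.42e-08). In the order of means, the step from WT to Cebpg-/- cells did not pass in either medium. It was 0.22 ± 0.17 under AAD and 0.27 ± 0.17 in normal medium (adjusted p = 0.366 and 0.287). In normal medium all Cebpg-/- arrays lay below the WT arrays. The last 2 steps, down to Atf4-/- in normal medium and then under AAD, passed (adjusted p = 0.0217 and 0.00545).

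Ier3, also called IEX-1 and known as a regulator of cell survival, changed least among the genes called in WT cells. It read 12.14, 11.99 and 12.04 in normal medium and 12.69, 12.60 and 12.47 under AAD, a rise of 0.53 ± 0.12 (1.44-fold, adjusted p = 0.00327). In Atf4-/- cells it read 11.93, 12.18 and 12.18 in normal medium and 11.49, 11.80 and 11.88 under AAD (-0.37 ± 0.12, adjusted p = 0.098, and 0.00177 with the replicate block). Cebpg-/- cells gave 12.24, 12.11 and 11.94 in normal medium and 12.59, 12.29 and 12.18 under AAD (0.26 ± 0.12, adjusted p = 0.147, and 0.00424 with the replicate block). The media lay apart in WT and Atf4-/- cells and overlapped in Cebpg-/- cells. In normal medium the 3 genotypes did not differ beyond their spread (12.06 to 12.10, adjusted p = 0.827 and 0.867 against WT). The response was lower in Atf4-/- than in WT cells by 0.90 ± 0.17 (adjusted p = 0.00214). It was higher in Cebpg-/- than in Atf4-/- cells by 0.63 ± 0.17 (adjusted p = 0.0411), a call lost when any of 8 of the 12 arrays was left out (replicates 1 and 2 of Atf4-/- AAD, 2 and 3 of Atf4-/- normal, 1 and 2 of Cebpg-/- AAD, 2 and 3 of Cebpg-/- normal medium), with 0.51 to 0.72 and adjusted p = 0.0232 to 0.104 over all 12. Under AAD it was lower in Atf4-/- than in WT cells by 0.87 ± 0.12 (1.82-fold, adjusted p = 1.49e-05). In the order of means one step between neighbours passed, the last, from WT in normal medium to Atf4-/- under AAD (0.34 ± 0.12, adjusted p = 0.0252).

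Csrnp1, which encodes a cysteine- and serine-rich nuclear protein that can act as a transcription factor, was set apart by its level in Atf4-/- cells. WT cells read 9.05, 9.10 and 9.27 in normal medium and 11.38, 11.43 and 11.32 under AAD, a rise of 2.23 ± 0.11 (4.70-fold, adjusted p = 5.34e-10). Cebpg-/- cells read 9.03, 8.88 and 8.59 in normal medium and 11.29, 11.02 and 11.06 under AAD, a rise of 2.29 ± 0.11 (4.88-fold, adjusted p = 6.72e-10). Atf4-/- cells read 11.16, 11.02 and 10.85 in normal medium and 10.87, 11.05 and 10.94 under AAD (-0.06 ± 0.11, adjusted p = 0.871). The last 2 groups overlapped, and all 6 Atf4-/- arrays lay far above every WT and Cebpg-/- array in normal medium. In normal medium Csrnp1 was higher in Atf4-/- than in WT cells by 1.87 ± 0.11 (3.66-fold, adjusted p = 1.75e-09), and under AAD it was lower by 0.42 ± 0.11 (1.34-fold, adjusted p = 0.00352). The lower response of Atf4-/- cells (-2.29 ± 0.15, adjusted p = 1.46e-07) went with a high level in normal medium, whereas that of Egr1 went with a low level under AAD. The responses of Cebpg-/- and WT cells differed by 0.05 ± 0.15 (95% interval -0.28 to 0.39). Among neighbours in the order of means, one step passed, from Atf4-/- under AAD to WT in normal medium (1.81 ± 0.11, adjusted p = 1.91e-09).

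**Figure D3:**
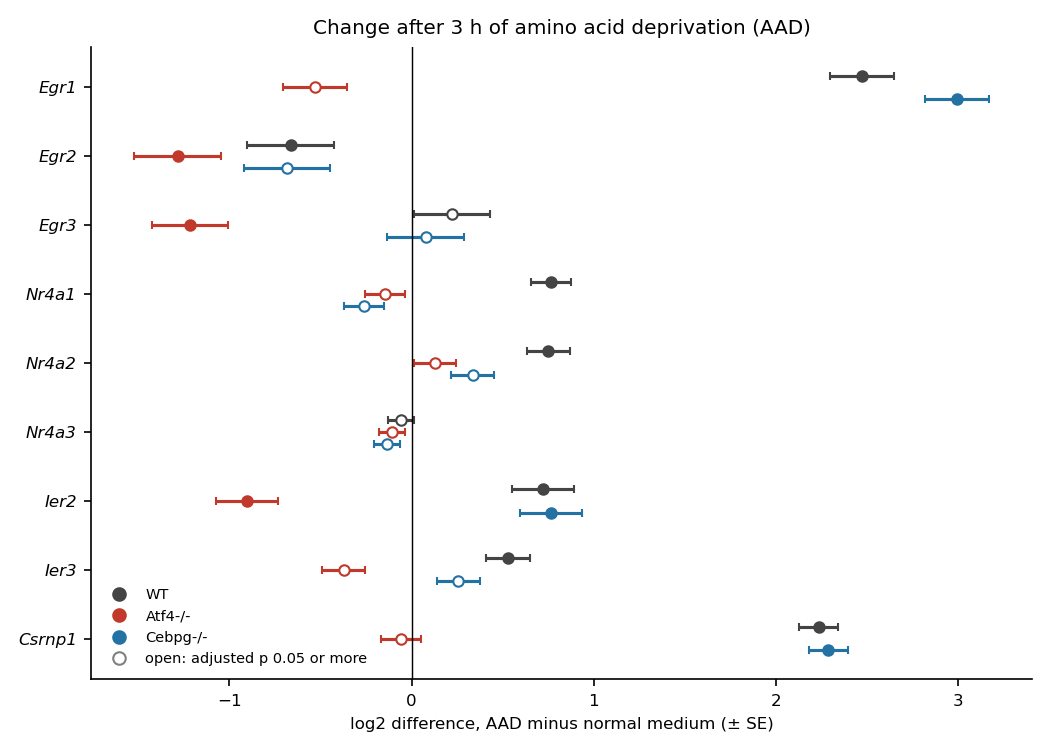
Log2 change under AAD ± SE (horizontal axis) of the 9 genes (rows) in the 3 genotypes, n = 3 arrays per group, with open symbols where the adjusted p was 0.05 or more. Egr1 and Csrnp1 lie between 2.23 and 2.99 in WT and Cebpg-/- cells and at -0.53 and -0.06 in Atf4-/- cells.

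Over the 9 genes, the response was lower in Atf4-/- than in WT cells for 7 and was not called for Egr2 and Nr4a3 (background: 12.8% of all genes called, 7.04% lower and 5.73% higher). The median difference was -0.91, against 0.01 over all genes. Against WT, the Cebpg-/- response was lower for 1 gene, Nr4a1, and none was called higher (background 0.226%, with 0.146% lower and 0.0801% higher). With the replicate block 2 were called, Nr4a1 and Nr4a2, and none was called without WT normal medium replicate 2 or Cebpg-/- normal medium replicate 1. The median difference was -0.08, against -0.00098 over all genes. Between the knockouts, the response was higher in Cebpg-/- cells for 5 genes, Egr1, Egr3, Ier2, Ier3 and Csrnp1, and none was called lower (background 5.3%, with 3.69% higher and 1.61% lower). Egr1 differed by 3.53 ± 0.25 and Csrnp1 by 2.35 ± 0.15 (adjusted p = 4.64e-07 and 2.05e-07). These comparisons share the arrays of WT or of a knockout. For Egr2 and the 3 NR4A receptors this difference did not pass (adjusted p = 0.398 to 0.929), while on the second Nr4a3 probe set it did, at 0.72 ± 0.18 (adjusted p = 0.0261).

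Between genotypes within a medium, 2 of the 9 genes were higher (Nr4a1 and Csrnp1) and 3 lower (Egr2, Egr3 and Ier2) in Atf4-/- than in WT cells in normal medium. Many genes differed there: 51.5% of all genes tested, 30.2% higher and 21.4% lower. Under AAD 8 of the 9 were lower, all but Nr4a3 on its brightest probe set (-0.15 ± 0.07, adjusted p = 0.0816), against 54.3% of all genes called, 22.9% lower and 31.4% higher. The median difference was -0.87 for the 9 and 0.02 for all genes. On its second probe set Nr4a3 was lower as well (-0.88 ± 0.13, adjusted p = 2.05e-05), which makes 9, and it was higher in normal medium (0.59 ± 0.13, adjusted p = 8.51e-04), which makes 6 called there. In Cebpg-/- cells 1 gene, Egr3, was lower in normal medium (background 23.3%, with 11.1% lower and 12.3% higher). Without WT or Cebpg-/- normal medium replicate 3 this count was 0, and without Cebpg-/- normal medium replicate 1 it was 2, with Csrnp1 (-0.41, adjusted p = 0.017). Under AAD 3 genes, Egr3, Nr4a1 and Nr4a2, were lower (background 29.5%, with 13.4% lower and 16.1% higher). The second Nr4a3 probe set was lower in Cebpg-/- than in WT cells under AAD too (-1.38 ± 0.13, adjusted p = 1.7e-06), which makes 4, and in normal medium (-0.63 ± 0.13, adjusted p = 0.00178), which makes 2. Without Cebpg-/- AAD replicate 1 there were 6 on the brightest probe sets, with Ier2 (-0.44, adjusted p = 0.0417), Ier3 (-0.36, adjusted p = 0.0364) and Csrnp1 (-0.34, adjusted p = 0.0414). Macrophage markers were higher in the same comparisons (8 and 13 of 16 in Atf4-/- and 15 and 16 of 16 in Cebpg-/- cells, in normal medium and under AAD), and fibroblast markers were mostly lower. In either medium 6 of 11 were lower and 2 higher in Atf4-/- cells, and 7 of 11 were lower and none was called higher in Cebpg-/- cells. Their part in these differences was not tested.

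**Figure D4:**
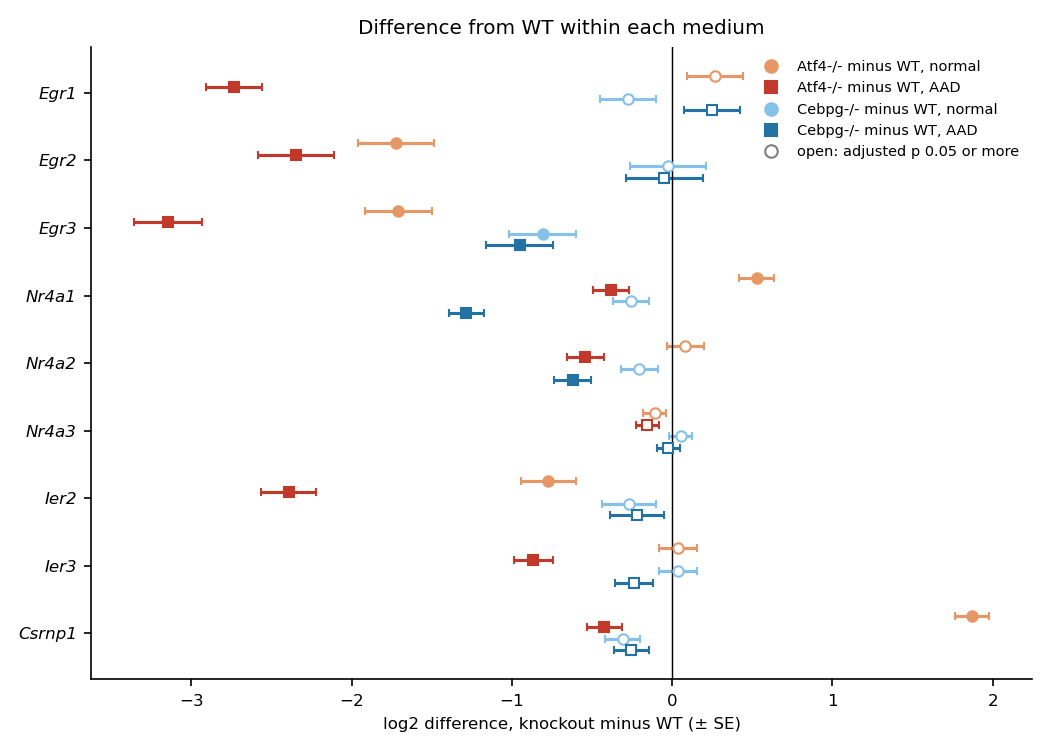
Log2 difference from WT ± SE (horizontal axis) of the 9 genes (rows) in Atf4-/- and Cebpg-/- cells, in normal medium and under AAD, n = 3 arrays per group, with open symbols where the adjusted p was 0.05 or more. Egr2, Egr3 and Ier2 lie below 0 in Atf4-/- cells in both media, and Csrnp1 lies at 1.87 in normal medium and at -0.42 under AAD.

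The wider immediate early class also rose for the most part in WT and Cebpg-/- cells. Of 37 other immediate early genes, all tested, 22 rose and 3 fell under AAD in WT cells (median 0.83), 2 rose and 8 fell in Atf4-/- cells (median -0.11), and 25 rose and 1 fell in Cebpg-/- cells (median 0.73). Over all genes tested, 14.3% were called higher and 13.9% lower in WT, 2.67% and 2.03% in Atf4-/- and 11.7% and 10.3% in Cebpg-/- cells. In WT cells the 3 with the largest rises were Atf3 (3.67 ± 0.12), a bZIP factor of the stress response, Fos (2.43 ± 0.17), a subunit of AP-1, and Dusp1 (1.87 ± 0.12), a phosphatase of MAP kinases. The 3 that fell were Dusp6 (-0.79 ± 0.13) and Dusp5 (-0.60 ± 0.14), phosphatases of ERK, and Klf2 (-0.50 ± 0.08), a zinc finger factor. The response was lower in Atf4-/- than in WT cells for 28 of the 37 and higher for 1 (median -0.89, background 7.04% lower and 5.73% higher). The lower ones were led by Atf3 (-3.08 ± 0.17), Fos (-2.38 ± 0.24) and Myc (-1.89 ± 0.14), and the higher one was Klf2 (0.61 ± 0.11). All these values had an adjusted p of at most 0.00353 (Dusp5). In Atf4-/- cells 5 rose with the replicate block in place of 2, and 8 fell, which became 5 without Atf4-/- normal medium replicate 2 and 4 with the groups of the comparison alone.

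**Figure D5:**
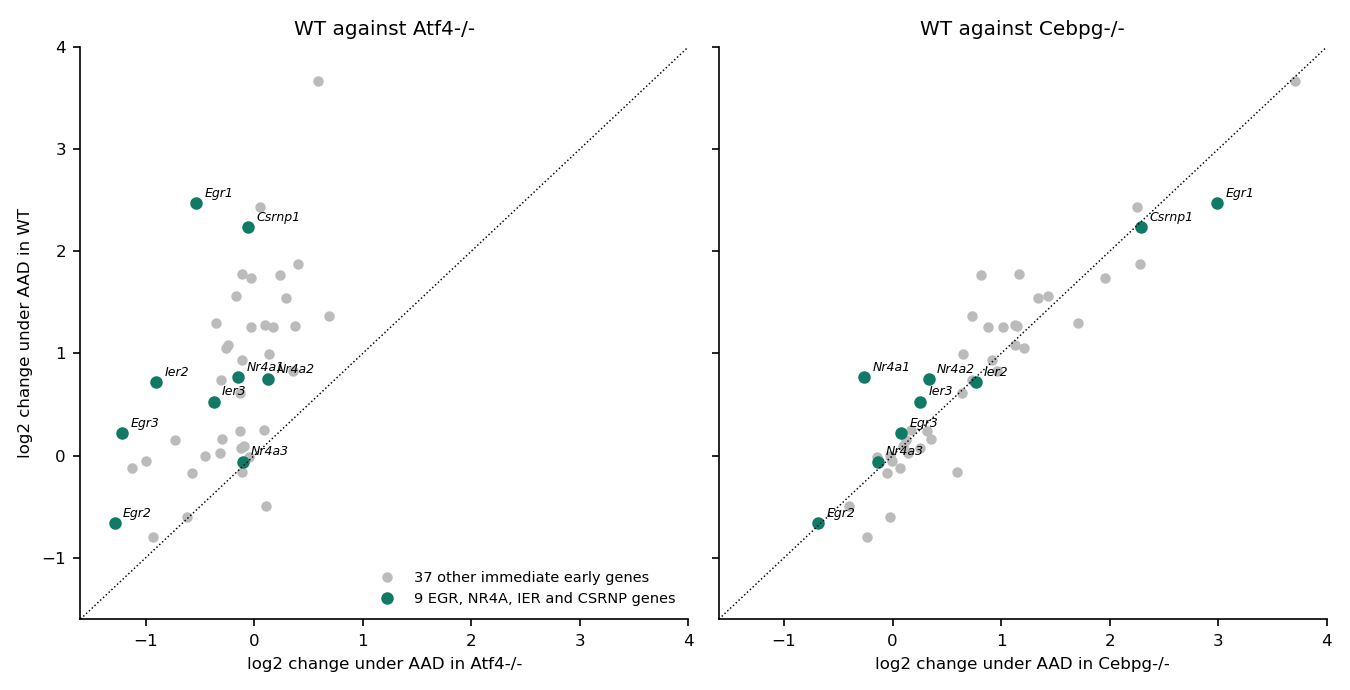
Log2 change under AAD in WT cells (vertical axis) against that in Atf4-/- cells (left) and in Cebpg-/- cells (right), with the 9 genes in green and 37 other immediate early genes in grey. The dotted line marks equal change. Egr1 and Csrnp1 lie far above the line on the left, at 2.47 and 2.23 in WT cells. On the right Csrnp1 lies on the line, Egr1 below it at 2.99 in Cebpg-/- cells, and Nr4a1 above it at -0.26.

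The sister genes of these families went different ways, with 4 of 5 tested. One of them, Egr4, was not called in WT cells (0.07 ± 0.09, limma adjusted p = 0.63). Its response in Atf4-/- cells differed from WT by -0.30 ± 0.12 and was not called either (adjusted p = 0.125). Ier5 rose in WT cells by 1.22 ± 0.06 (adjusted p = 4.12e-10), while Ier5l fell by 0.99 ± 0.15 and Csrnp2 by 0.84 ± 0.09 (adjusted p = 8.44e-05 and 2.13e-06). Against WT, the response in Atf4-/- cells was lower for Ier5 (-1.32 ± 0.08) and higher for Ier5l (0.97 ± 0.21) and Csrnp2 (0.60 ± 0.12), which in Atf4-/- cells read -0.019 ± 0.15 and -0.24 ± 0.09 under AAD (adjusted p = 0.978 and 0.146). Among 7 coregulators and partners, 3 rose in WT cells and none was called lower (background 14.3% higher and 13.9% lower). They were Nab2, the EGR corepressor (0.37 ± 0.13, adjusted p = 0.0397), Rxrb, a retinoid X receptor (0.35 ± 0.05), and Sp1, a factor of GC-rich sites (0.19 ± 0.05). Nab1, the other NAB gene, gave 0.05 ± 0.09 (adjusted p = 0.749). Without WT AAD replicate 1 or WT normal medium replicate 3, 1 of the 7 rose in place of 3.

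Of 26 upstream kinases and factors, 9 rose and 5 fell in WT cells (background 14.3% higher and 13.9% lower). In Atf4-/- cells none was called higher and 1 fell, Srf (-0.54 ± 0.14, adjusted p = 0.0327), against a background of 2.67% higher and 2.03% lower. The Srf call was lost, and the count was 0, without either of Atf4-/- normal medium replicates 1 and 2 or AAD replicates 2 and 3. In Cebpg-/- cells 7 rose and 3 fell (background 11.7% higher and 10.3% lower), Srf among the latter (-0.60 ± 0.14, adjusted p = 0.00445). The largest rises in WT cells were those of Rps6ka5, the kinase MSK1 (0.84 ± 0.17), Crem, a CREB relative (0.71 ± 0.09), and Mef2d, a MADS-box factor (0.59 ± 0.07). The largest falls were those of Elk3, an ETS partner of SRF (-0.45 ± 0.06), and of the kinases Mapk14 (-0.23 ± 0.06) and Mapk7 (-0.22 ± 0.05). Against WT, 6 had a lower response in Atf4-/- cells and 1 a higher one (background 7.04% lower and 5.73% higher). The lower ones were led by Crem (-0.74 ± 0.12), Ep300 (-0.49 ± 0.11) and Creb1 (-0.46 ± 0.13), and the higher one was Elk3 (0.36 ± 0.09). With the replicate block 10 were lower and 3 higher. The higher count was 2 without WT normal medium replicate 1 or 3 or WT AAD replicate 1. In WT cells 3 in place of 5 fell without WT normal medium replicate 2 or WT AAD replicate 2 or 3, without the filter, and with median centring.

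The 14 EGR target genes tested split evenly in WT cells, with 4 higher, 4 lower and a median of -0.10 (background 14.3% higher and 13.9% lower). Icam1 (0.50 ± 0.14), Cdkn1a (0.39 ± 0.08) and Nab2 rose, while the growth factor genes Fgf2 (-1.23 ± 0.15), Pdgfa (-0.84 ± 0.13) and Tgfb1 (-0.59 ± 0.14) fell. The response of these 3 growth factor genes was higher in Atf4-/- than in WT cells (1.03 ± 0.22, 0.90 ± 0.18 and 0.67 ± 0.20, adjusted p = 0.00446, 0.00389 and 0.041). Under AAD in Atf4-/- cells Fgf2 read -0.20 ± 0.15, Pdgfa 0.06 ± 0.13 and Tgfb1 0.08 ± 0.14, and none of the 3 passed (adjusted p = 0.597, 0.9 and 0.87). With the replicate block 3 targets were also called lower there, in place of none, and 1 was without Atf4-/- AAD replicate 1 or 3 or normal medium replicate 2. In WT cells 2 targets rose in place of 4 without WT normal medium replicate 1 or WT AAD replicate 1 or 3.

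For each gene the 3 tested genes with the most similar pattern were looked up among 12957 others, by the root mean square distance between the 6 group means after centring. Near in pattern does not mean equal in each response, so the AAD change in Atf4-/- cells is given for several. Egr1 was followed by Gem, a small GTPase (0.32 log2 units), Fos (0.36) and Krtap1-5 (0.40). That change was 0.15, 0.05 and -0.29 for these, against -0.53 for Egr1. Csrnp1 had Ppp1r15a, a regulatory subunit of the eIF2 phosphatase (0.27), Hbp1 (0.30) and Crebrf (0.35) as its nearest. They changed by 0.35, 0.76 and 0.80 in Atf4-/- cells, against -0.06 for Csrnp1. Egr2 had Has2, a hyaluronan synthase, at 0.15, ahead of Pclaf (0.32) and E2f8 (0.36). Has2 changed by -1.11 in Atf4-/- cells, close to the -1.28 of Egr2, but Pclaf and E2f8 by -0.33 and -0.35. Egr3 had no gene nearer than Shmt2, the mitochondrial serine hydroxymethyltransferase, at 0.35, then Srpx2 (0.36) and Tnnt2 (0.37). Under AAD in Atf4-/- cells these 3 changed by -0.17, -0.14 and 0.01, against -1.22 for Egr3. Ier2 had Siah2 (0.31), Rad54b (0.32) and Slc1a4 (0.32), which changed by -0.11, -0.09 and 0.09 in Atf4-/- cells, against -0.90 for Ier2. Nr4a1 had Id4 and Mex3b, both at 0.11, and Hhipl1 at 0.17. Ier3 had Coq10b (0.039), Rbm15 (0.087) and Gzmb (0.089), and Nr4a2 had Klhl22 (0.063), Atad2b (0.072) and Kcne4 (0.085). A flat gene is close to every other flat gene, and Nr4a3 on its brightest probe set lay 0.015 from Zap70 and Caly and 0.016 from Ccin.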

How the data were processed

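Values are the deposited log2 probe set values of 18 arrays, made by the authors with RMA per the submitters' processing notes. They were used without further normalization (range 2.15 to 14.56, array medians 5.21 to 5.27). Probe sets with 1 gene symbol were kept, the brightest per gene. A gene was tested if its highest group mean reached 4.65, the 40th percentile of all values.

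The 10 comparisons were fitted across the 13728 genes left with limma 3.58.1 in R 4.3.3: 6 group means, 12 residual degrees of freedom, moderated variances, Benjamini-Hochberg adjustment. The fit was tested on simulated data first. Errors of differences are standard errors.

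Whether replicate numbers pair arrays was checked on residuals. Same-numbered arrays of a genotype correlated between its media (0.30 to 0.69, 9 of 9 pairs above 0.1). Differently numbered ones gave -0.56 to 0.09, and same-numbered ones across genotypes gave -0.24 to 0.19. Residuals cancel out within a group, so positive values of same-numbered arrays pull those of differently numbered ones down. The range of the latter is thus not separate evidence of pairing. From the same-numbered arrays, the numbers were taken to pair arrays within a genotype. The main fit did not use this pairing, and its calls are the ones counted unless the replicate block is named. Several AAD differences that the main fit left uncalled passed with the block, as given for each gene above.

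Named were the 9 genes, the targeted genes, the 3 nearest patterns per gene, and per list the 3 largest called rises and falls for AAD in WT and for the response of Atf4-/- minus WT. Other genes, in counts of 5 or fewer, were named after their values were seen. So were those of the 8 other immediate early genes falling in Atf4-/- cells that this rule had not named. The 9 genes and the lists were chosen with earlier results of these data known. Alternatives set another probe set or mean of probe sets, filter, scaling, variance model, set of arrays or replicate block. Promoter windows are RefSeq's.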

Additional observations from a re-analysis of the deposited data

Results flagged for a closer look

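The listed results are differences of the response to AAD between genotypes that passed the test of the difference itself (limma, adjusted p as given above). In Atf4-/- minus WT cells these were Egr1 at -3.00, Egr3 at -1.44, Nr4a1 at -0.91, Nr4a2 at -0.62, Ier2 at -1.62, Ier3 at -0.90 and Csrnp1 at -2.29, all lower in Atf4-/- cells. In Cebpg-/- minus WT cells it was Nr4a1 at -1.03. In Cebpg-/- minus Atf4-/- cells these were Egr1 at 3.53, Egr3 at 1.29, Ier2 at 1.67, Ier3 at 0.63 and Csrnp1 at 2.35. The comparisons share arrays, so they are not independent of each other.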

How the results depend on the processing

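Of 1566 values of the 9 genes under alternatives, 1470 kept their side of the threshold and, except for 49 that passed in neither setting, their direction, 39 lost the call, 39 gained it and 18 reversed, all 18 through another probe set or the mean of a gene's probe sets. Reversed means a change of sign where the main value, the alternative value or both were called. No main value of Nr4a3 was called, so its reversals were gained calls. For the other genes a called main value changed sign. The reversals for Nr4a3 were 0.58 in WT and 0.23 in Cebpg-/- cells with the mean of its probe sets, and 1.66 (WT), 0.91 (Cebpg-/-), 0.72 (Cebpg-/- minus Atf4-/- response), 0.59 (Atf4-/- against WT in normal medium) and -0.63 (Cebpg-/- against WT there) with its second. The dimmer Egr3 probe set gave -0.060 for the knockouts' response difference, 0.014 for Atf4-/- and 0.10 for Cebpg-/- against WT in normal medium, and 0.0029 for Cebpg-/- under AAD. The 2 dimmest of Nr4a2 gave -0.049 and -0.098 in WT cells, 0.063 for the Atf4-/- minus WT response and 0.038 for Atf4-/- against WT under AAD. The dimmer Csrnp1 probe set gave -0.00065 in WT cells, -0.0098 in Cebpg-/- cells and -0.00038 for Atf4-/- against WT in normal medium. The cause was not tested.

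Pairing arrays by a replicate block within genotype raised the members called under AAD from 3 to 5 in Atf4-/- and from 3 to 7 in Cebpg-/- cells, and from 1 to 2 for the Cebpg-/- minus WT response. It also called Egr2 for Cebpg-/- minus Atf4-/- (0.60, adjusted p = 0.00414) and otherwise lost no call among the 9 genes. In Cebpg-/- cells 5 were called with the mean of probe sets or a filter at the 60th percentile. For Cebpg-/- against WT in normal medium, 2 were called in place of 1 with that filter, median centring, trend and robust variances, a replicate block over all genotypes or the second Nr4a3 probe set. Leaving out 1 array gave 0 to 1 calls for the Cebpg-/- minus WT response, 0 to 2 for Cebpg-/- against WT in normal medium and 3 to 6 under AAD. The fall of Egr2 in WT cells lost its call with no filter (adjusted p = 0.0564), median centring (0.0616) and trend and robust variances (0.0681), and that in Atf4-/- cells with the groups of the comparison alone (0.0993). The Ier3 difference between the knockouts' responses lost its call with those groups alone (0.0938) and a replicate block over all genotypes (0.0566). With 3 arrays per group, dim probe sets near the filter level limit what can be read.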

Other observations

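Among the 37 other immediate early genes, 2 had a lower response in Cebpg-/- than in WT cells, as Nr4a1 did (background 0.146% lower). Klf4, a zinc finger factor, rose by 1.77 ± 0.10 in WT and 0.81 ± 0.10 in Cebpg-/- cells (difference -0.95 ± 0.14, limma adjusted p = 0.0118). Klf10, a TGF-β-inducible zinc finger factor, rose by 1.36 ± 0.08 and 0.73 ± 0.08 (difference -0.63 ± 0.11, adjusted p = 0.0311), and it also rose in Atf4-/- cells (0.69 ± 0.08, adjusted p = 7.04e-05). In place of 2, 1 of the 37 was called lower without any of 9 of the 12 arrays (WT normal medium replicates 1 and 2, WT AAD replicates 1 and 3, Cebpg-/- normal medium replicates 1 to 3 and Cebpg-/- AAD replicates 1 and 2), and with the replicate block 4 were lower and 3 higher. Of the family sisters, Csrnp2 had a higher response in Cebpg-/- cells (0.77 ± 0.12, adjusted p = 0.0167), since it fell by 0.84 ± 0.09 in WT cells and read -0.07 ± 0.09 under AAD in Cebpg-/- cells. This call was lost without WT normal medium replicate 2 or 3, WT AAD replicate 3, Cebpg-/- normal medium replicate 1 or Cebpg-/- AAD replicate 2.

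Of the 8 other immediate early genes that fell under AAD in Atf4-/- cells, as Egr2, Egr3 and Ier2 did, 2 also fell in WT cells and 6 did not pass there. Phlda1 fell by 0.99 ± 0.08, Errfi1, a feedback inhibitor of EGF receptors, fell by 1.12 ± 0.15, Ptgs2, the inducible cyclooxygenase, fell by 0.57 ± 0.07 and Hbegf, an EGF-family ligand, fell by 0.45 ± 0.09 (adjusted p = 2.03e-06, 3.05e-04, 9.83e-05 and 0.0108). Fosl1, a FOS relative, fell by 0.73 ± 0.12 and Ccn1, a matricellular protein gene, fell by 0.32 ± 0.07 (adjusted p = 0.00174 and 0.0186). In WT cells these 6 lay between -0.17 (Ptgs2) and 0.15 (Fosl1) and did not pass. The responses of the first 4 were lower in Atf4-/- than in WT cells (-0.94 ± 0.11, -1.003 ± 0.21, -0.41 ± 0.09 and -0.45 ± 0.13, adjusted p = 2.78e-05, 0.00439, 0.00912 and 0.036), as were those of Fosl1 (-0.88 ± 0.17, adjusted p = 0.00225) and Ccn1 (-0.34 ± 0.10, adjusted p = 0.0377). Dusp5 and Dusp6 fell in both genotypes, with changes of -0.62 ± 0.14 and -0.93 ± 0.13 in Atf4-/- against -0.60 ± 0.14 and -0.79 ± 0.13 in WT cells, and their responses differed by -0.02 ± 0.19 and -0.14 ± 0.18 (adjusted p = 0.97 and 0.73).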
